A study of Homo sapiens and Mus musculus with 8 samples.

Results

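The mRNA expression of 39 interferon response genes was followed in K562 cells cultured with Jiyuan oridonin A (JOA). The genes were chosen by symbol from the 35141 genes of the K562 table, and comprise the interferon receptors, STAT2, the IRF transcription factors and genes known to be induced by interferon. HLA and peptide loading genes were left out of this selection, and all 39 genes were found in the table. The choice of genes used no measured value of the comparison, but it was made with earlier results of these data known.

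K562 is a human chronic myeloid leukemia (CML) cell line with erythroid features that expresses BCR-ABL, and JOA is an ent-kaurene diterpenoid compound. The study asked which genes accompany the response of CML cells to JOA. K562 cells received control or 2 μM of JOA, each for 48 h, and 2 libraries of polyadenylated RNA were sequenced per condition, named control replicate 1, control replicate 2, JOA replicate 1 and JOA replicate 2. All 4 libraries come from this single line, no interferon treatment is among the conditions, and neither the labels nor the methods say whether the libraries came from separate cultures, so that a p-value here reflects only how much these libraries vary.

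Type I interferons bind a receptor made of IFNAR1 and IFNAR2, and type II interferon binds a receptor made of IFNGR1 and IFNGR2. Receptor-bound JAK kinases then phosphorylate STAT proteins. A complex that holds STAT2 and IRF9 binds a DNA element called ISRE, and the type II pathway acts through another element, called GAS. The induced genes include sensors of foreign RNA, enzymes that block translation or cleave RNA, and membrane proteins that hinder the entry or release of viruses, and many of them are also transcribed at a basal level without added interferon.

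The deposited values are FPKM, read fragments scaled by exon length and by sequencing depth, which adjust for gene length and library size. Reads were recovered from them with GENCODE 29 exon lengths, and the libraries held between 22625594 and 23292630 reads. Mitochondrially encoded genes took 21.8% and 24.0% of the summed FPKM in the controls and 20.8% and 20.1% with JOA, and 25380 and 25479 genes were above 0 in the controls against 26040 and 27222 with JOA. Both measures thus lay on one side in both JOA libraries, and their part in the results was not tested. The defining genes of the K562 line were present, with all 8 erythroid markers above 0.5 FPKM, and their summed level was 5260 and 4958 FPKM in the controls against 2661 and 1839 FPKM in the JOA libraries. The sum was thus lower with JOA, and lowest in JOA replicate 2. HBE1 alone held 3464 and 3227 FPKM of it in the controls and 1645 and 1072 FPKM with JOA. The markers did not move alike: GATA1 had a log2 fold change of -0.30, and TAL1 overlapped between the groups at 0.0031. The part of these marker differences in the values below was not tested. Markers of other cell types were mostly low: 2 of 5 T and NK cell genes, 1 of 4 B cell genes, 1 of 5 monocyte and dendritic cell genes and 2 of 4 fibroblast and epithelial genes were above 0.5 FPKM, and MS4A1 was at 0 in all 4 libraries. The summed T and NK cell list was 6.55 and 5.56 FPKM in the controls against 13.9 and 9.89 FPKM with JOA, and the B cell list was 4.26 and 4.24 against 5.81 and 5.82 FPKM. The monocyte and dendritic cell list was 22.2 and 16.6 against 30.4 and 19.4 FPKM, and the fibroblast and epithelial list was 30.8 and 35.0 against 30.9 and 26.9 FPKM, so that both overlapped between the groups. The part of these genes in the results was not tested either. In RNA from a culture, fewer cells that express a gene and less of its RNA per cell cannot be told apart.

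The 39 genes spanned a wide range of levels. The highest were BST2, with a mean of 148 FPKM over the 4 libraries, and IFITM1, with 101 FPKM. At the other end, IFI44 had no read in any library. A mean of at least 0.5 FPKM was reached by 28 genes, which were tested, and 14 of these had a mean of at least 5 FPKM. The other 11 genes, ISG20, IFI44, IFI44L, IFIT1, IFIT2, IFIT5, MX1, MX2, OAS1, OAS2 and TRIM22, were weakly detected and were not tested. Genes of one family could lie far apart: OAS3 had a mean of 0.943 FPKM while OAS1 and OAS2 had at most 2 reads in any library, and IFIT3 stood at 1.39 FPKM while IFIT5 had 1 or 2 reads per library.

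**Figure D1:**
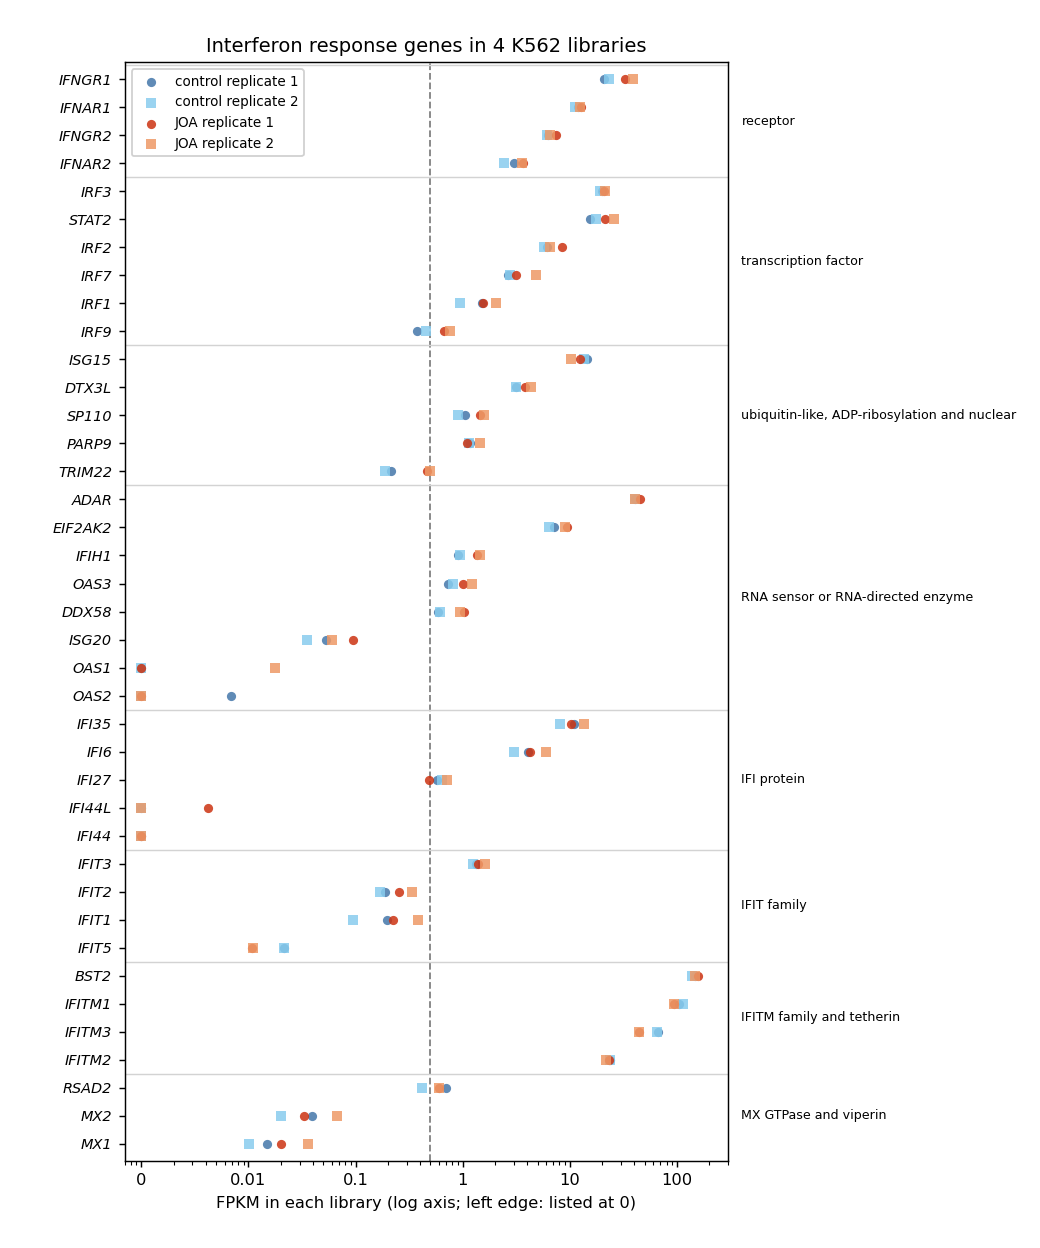
FPKM of the 39 interferon response genes (vertical axis, grouped by role) in each of the 4 K562 libraries, on a log axis whose left edge marks genes listed at 0. Circles are replicate 1 and squares replicate 2, blue for control and red or orange for JOA, and the dashed line marks the 0.5 FPKM minimum, below which 11 genes lie by their mean. BST2 and the IFITM genes are at the high end, and OAS1, OAS2, IFI44L and IFI44 are at or near 0.

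None of the 28 genes tested passed the adjusted threshold, which was an adjusted p under 0.05 in limma (a moderated linear model fitted to all genes, with Benjamini-Hochberg adjustment) together with a log2 fold change past 0.58 in either direction. Their adjusted p-values in limma ran from 0.226 to 0.976. No other gene of the 15635 tested passed it either, so the background was 0.0% in each direction, and the smallest adjusted p of any gene was 0.171. At an unadjusted p under 0.05 with the same fold, 841 of all genes were higher with JOA (5.38%) and 372 were lower (2.38%). Of the 28 interferon response genes, 1 was higher by this rule, IFNGR1, and 0 were lower. The number higher moved with the background of each fit. It was 4 of 28 without JOA replicate 1, beside 11.96% of all genes, 2 of 28 without control replicate 2, beside 4.82%, and 0 without JOA replicate 2, beside 3.63%. It was 5 of 28 with voom on the recovered reads, beside 7.2%, and 0 of 28 after median-ratio scaling, beside 3.40%. After TPM scaling it was 6 of 31, beside 8.63%. The 31 include TRIM22, IFIT1 and IFIT2, which were under the minimum as deposited. On the TPM scale IFIT1 reached it only through its JOA libraries, so its value is no support for a direction. IFITM3 was lower by this rule after median-ratio scaling (4.41% of all genes) and without control replicate 2 (2.80%). At an unadjusted p under 0.05 alone, 3 were higher (IFNGR1, STAT2 and EIF2AK2; background 11.4%) and 1 was lower (IFITM3; background 5.82%). The split of all genes into higher and lower depended on the scaling: after median-ratio scaling it was 530 against 687, and after quantile normalization 516 against 539.

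By position, 19 of the 28 genes (67.9%) had both JOA libraries above both controls, against 36.8% of all genes tested. IRF9 is among the 19 and enters the medians below, although its control mean of 0.416 FPKM is under the minimum of 0.5 FPKM. Both JOA libraries lay below both controls for 4 genes (ISG15, IFITM1, IFITM2 and IFITM3, 14.3%), against 18.3%. The groups overlapped for 5 genes, IFI27, IFI35, BST2, RSAD2 and PARP9. The log2 fold change of JOA against control was positive for 23 of the 28 (82.1%), against 62.3% of all genes. With 2 libraries against 2, an exact two-sided permutation test of a single gene cannot give a p under 0.333, so these counts describe the libraries and are no test. After median-ratio scaling, 11 of the genes lay above both controls, beside 23.0% of all genes, and 4 lay below, beside 30.2%. After quantile normalization 14 lay above, beside 25.9%, and 5 below, beside 25.3%.

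The median log2 fold change of the 28 genes was 0.30, with a range of -0.57 to 0.69, beside a median of 0.096 over all genes tested. It was 0.16 when control replicate 2 was left out, beside 0.10 over all genes, a distance of only 0.058. The distance was 0.14 to 0.23 when another library was left out, and 0.10 without the minimum. The median of all genes itself moved with the scaling, to 0.22 after TPM scaling, -0.031 after median-ratio scaling and 0.0031 after quantile normalization. Relative to it, the median of the interferon response genes was higher by 0.21 as deposited, 0.23, 0.20 and 0.18 under these scalings in turn. The value after TPM scaling includes IFIT1, which reached the minimum there only through its JOA libraries. The values also differed by level. Genes with a mean of 0.5 to 5 FPKM had a median of 0.38 for the 14 interferon response genes and 0.18 for all genes of that level, whereas at 5 FPKM or more the medians were 0.12 and 0.029. The low genes were also higher in JOA replicate 2 than in JOA replicate 1 in 12 of 14 cases (85.7%), against 64.3% of all genes at that level. At 5 FPKM or more, the same order was seen in 6 of 14 (42.9%), against 44.4%.

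**Figure D2:**
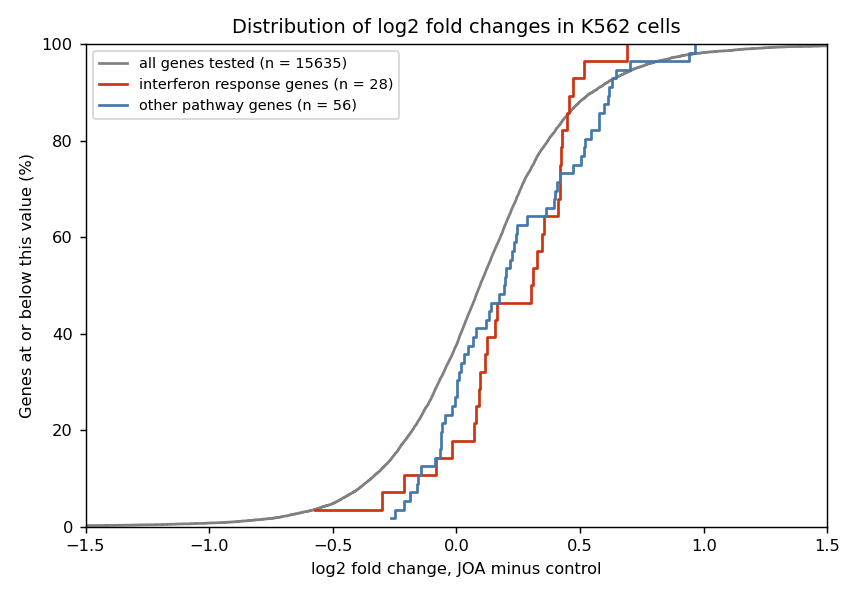
Cumulative share of genes (vertical axis, %) at or below each log2 fold change of JOA against control (horizontal axis) for all 15635 genes tested (grey), the 28 interferon response genes (red) and 56 other genes of the interferon pathway (blue). The red curve lies to the right of the grey one through the middle of the range, with medians of 0.30 and 0.096, and it ends at 0.69, while the grey curve goes on past it.

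The 4 receptor genes were all above both controls in both JOA libraries, against 36.8% of all genes tested. IFNGR1, the ligand-binding chain of the type II receptor, had 20.8 and 23.0 FPKM in the controls and 32.7 and 38.7 FPKM with JOA. Every JOA value was thus above every control value, with means of 21.9 ± 1.58 and 35.7 ± 4.30 FPKM (SD, n = 2 libraries). The log2 fold change was 0.69 ± 0.13 (SE), the largest among the 28 genes, with an unadjusted p of 0.0035 and an adjusted p of 0.236 in limma. It was 0.57 without JOA replicate 2 and 0.55 after median-ratio scaling, both under the fold threshold of 0.58.

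The other receptor chains lay nearer to their controls. IFNGR2, the signalling chain of the type II receptor, had 6.28 and 6.18 FPKM in the controls and 7.47 and 6.57 FPKM with JOA, a log2 fold change of 0.16 ± 0.12 (SE). It was 0.071 without JOA replicate 1, 0.24 without JOA replicate 2 and 0.022 after median-ratio scaling. IFNAR1, a chain of the type I receptor, had 11.9 and 11.3 against 12.8 and 12.5 FPKM, a log2 fold change of 0.12 ± 0.10 (SE) that turned to -0.016 after median-ratio scaling. Its partner IFNAR2 had 2.996 and 2.45 against 3.65 and 3.55 FPKM, a log2 fold change of 0.35 ± 0.15 (SE), or 0.23 without control replicate 2. IFNAR2, IFNAR1 and IFNGR2 lie within chr21:33229901-33479348 on GRCh38, and IFNGR1 is on chromosome 6 (chr6:137197484-137219449, minus strand). IFNGR2 shares 12.8% of its exon bases with TMEM50B on the opposite strand, which stood at 12.7 FPKM, and whether the counting used the strand is not given in the sources used here, so reads of the pair may not be separable. IFNAR2 shares 39.1% of its exon bases with IL10RB-DT on the opposite strand, which was at 0.192 FPKM, and 44.2% on the same strand with AP000295.1, which was not analysed here, so reads of the latter pair cannot be separated by strand.

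All 6 transcription factor genes were above both controls in both JOA libraries, against 36.8% of all genes tested, with a median log2 fold change of 0.41. Both the count and the median include IRF9, which reached the minimum only through its JOA libraries. IRF3 was at -0.025 after median-ratio scaling. STAT2, a subunit of the complex that binds ISRE, had 15.4 and 17.5 FPKM in the controls and 21.5 and 26.1 FPKM with JOA. The lowest JOA value exceeded the highest control value, and the log2 fold change was 0.51 ± 0.14 (SE; unadjusted p = 0.0160, adjusted p = 0.251 in limma). IRF9, the DNA-binding subunit of that complex, was near the detection minimum with 0.373 and 0.458 FPKM in the controls and 0.673 and 0.757 FPKM with JOA, or 33, 40, 59 and 65 reads. Its control mean of 0.416 FPKM is under the minimum of 0.5 FPKM, so it was tested because of its JOA libraries, and its log2 fold change of 0.41 ± 0.24 (SE) is no support for the direction of the group. IRF9 also shares 48.4% of its exon bases on the same strand with AL136295.5, which stood at 0.159 FPKM, so its value is uncertain.

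The IRF factors differed in how closely the JOA libraries agreed. IRF7, which with IRF3 switches on the interferon genes themselves, had 2.63 and 2.78 FPKM in the controls and 3.11 and 4.79 FPKM with JOA, so that most of its log2 fold change of 0.45 ± 0.22 (SE) came from JOA replicate 2. It was 0.17 without that library. IRF2, known as an antagonist of IRF1, showed the opposite order, with 6.08 and 5.76 against 8.43 and 6.57 FPKM and a log2 fold change of 0.31 ± 0.15 (SE), which was 0.14 without JOA replicate 1. IRF1, an activator induced by both interferon types, had 1.52 and 0.948 against 1.56 and 2.03 FPKM, where JOA replicate 1 lay only just above control replicate 1. Its log2 fold change was 0.42 ± 0.24 (SE), with a range of 0.18 to 0.66 over the fits that left out 1 library each. IRF3, kept inactive in the cytoplasm until a sensor is triggered, had 20.01 and 19.0 against 21.0 and 21.3 FPKM, a log2 fold change of 0.12 ± 0.097 (SE). IRF3 shares 19.3% of its exon bases with BCL2L12 on the opposite strand, which stood at 42.7 FPKM.

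**Figure D3:**
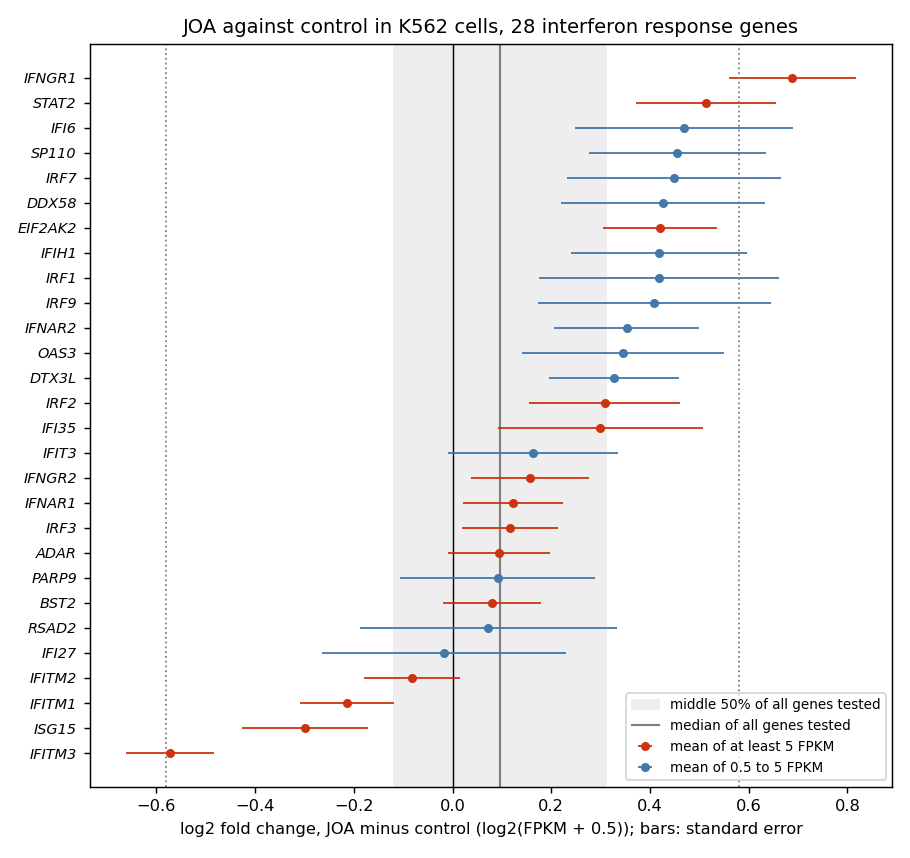
Log2 fold change of JOA against control (horizontal axis, on log2(FPKM + 0.5), bars are standard errors from limma) for the 28 interferon response genes tested, in order of value. Red points have a mean of at least 5 FPKM and blue points 0.5 to 5 FPKM, the grey band holds the middle 50% of all genes tested, the grey line is their median of 0.096, and the dotted lines mark the fold threshold of 0.58. Only IFNGR1 lies past a dotted line, and IFITM3 at -0.57 is the lowest.

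Among the RNA sensors and RNA-directed enzymes, all 5 genes tested were above both controls in both JOA libraries, against 36.8% of all genes tested. However, ADAR was at -0.050 after median-ratio scaling, and ISG20, OAS1 and OAS2 were too weak to test. EIF2AK2, the kinase PKR that halts translation when it binds double-stranded RNA, had 7.19 and 6.44 FPKM in the controls and 9.50 and 9.07 FPKM with JOA. The groups did not overlap, and the log2 fold change was 0.42 ± 0.12 (SE; unadjusted p = 0.0158, adjusted p = 0.249 in limma). The cytoplasmic helicases that sense viral RNA were low. DDX58, which encodes RIG-I, had 0.582 and 0.619 against 1.02 and 0.934 FPKM, a log2 fold change of 0.43 ± 0.21 (SE). IFIH1, which encodes MDA5, had 0.901 and 0.9504 against 1.36 and 1.45 FPKM, a log2 fold change of 0.42 ± 0.18 (SE). In both helicase genes each JOA library stood above each control, and the values without 1 library in turn were 0.38 to 0.47 for DDX58 and 0.38 to 0.46 for IFIH1.

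OAS3, a synthase of the oligoadenylates that activate RNase L, had 0.729 and 0.811 FPKM in the controls and 1.00 and 1.23 FPKM with JOA, a log2 fold change of 0.35 ± 0.20 (SE). ADAR, an enzyme that deaminates adenosine in double-stranded RNA, was far more abundant. It had 40.6 and 40.5 against 45.7 and 41.0 FPKM, a log2 fold change of 0.094 ± 0.10 (SE), so that JOA replicate 2 was hardly apart from the controls. Its value was 0.17 when JOA replicate 2 was left out and 0.017 when JOA replicate 1 was. ISG20, an exonuclease, had 9, 6, 16 and 10 reads in control replicates 1 and 2 and JOA replicates 1 and 2. OAS2 had 1 read, in control replicate 1, and OAS1 had 2 reads, both in JOA replicate 2. Neither count exceeds the limit of 3 reads that a count of 0 allows, so no difference was detectable at this depth.

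The membrane proteins that restrict viruses included the 3 most abundant of the 39 genes, BST2, IFITM1 and IFITM3, and lay apart from the groups above. Of the 3 IFITM genes and BST2, 0 were above both controls (36.8% of all genes), 3 were below (18.3% of all genes) and BST2 overlapped. Their median log2 fold change was -0.15. IFITM3, which hinders the fusion of viruses with endosomal membranes, had 66.8 and 65.8 FPKM in the controls and 44.2 and 44.7 FPKM with JOA, or 2098, 2041, 1378 and 1362 reads. The replicates were close to each other in both groups, at 66.3 ± 0.710 and 44.4 ± 0.302 FPKM (SD, n = 2 libraries). The log2 fold change of -0.57 ± 0.089 (SE) had an unadjusted p of 0.00157 and an adjusted p of 0.226 in limma. It ran from -0.58 to -0.56 over the fits that left out 1 library each. Under the other scalings it ran from -0.72 to -0.48, below 0 in each, and relative to the median of all genes from -0.70 to -0.49.

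IFITM1, which acts at the plasma membrane, had 104 and 113 FPKM in the controls and 93.1 and 93.4 FPKM with JOA. The JOA libraries agreed closely and both lay below the controls, by a log2 fold change of -0.21 ± 0.096 (SE; adjusted p = 0.326 in limma). IFITM2, a close relative of IFITM3, had 23.6 and 24.0 against 23.2 and 21.7 FPKM, a log2 fold change of -0.082 ± 0.098 (SE) that was 0.013 after TPM scaling. IFITM2, IFITM1 and IFITM3 are neighbours on chromosome 11, within the stretch chr11:307631-615999 that also holds IRF7. IFITM1 and IFITM2 share 351 exon bases on the same strand, which is 32.5% of IFITM1 and 22.7% of IFITM2. A further 17.4% of the stretches of 50 bases in IFITM2 occur in other genes too, IFITM3 first among them, so reads may be split between the 3 genes and the value of IFITM2 is uncertain. For IFITM3 the count leaves out stretches already counted under IFITM1 or IFITM2. Of its remaining stretches 1.60% occur in other genes, so this share understates its overlap, and its value is uncertain too. In addition, 21.3% of its exon bases lie opposite a noncoding gene, AC136475.5, at 2.15 FPKM.

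BST2 encodes tetherin, which holds budding virus particles on the cell surface. It had 148 and 139 FPKM in the controls and 158 and 146 FPKM with JOA. The ranges overlapped, and the log2 fold change was 0.079 ± 0.099 (SE), turning to -0.066 after median-ratio scaling. BST2 is thus the only one of these 4 genes with a positive value as deposited.

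**Figure D4:**
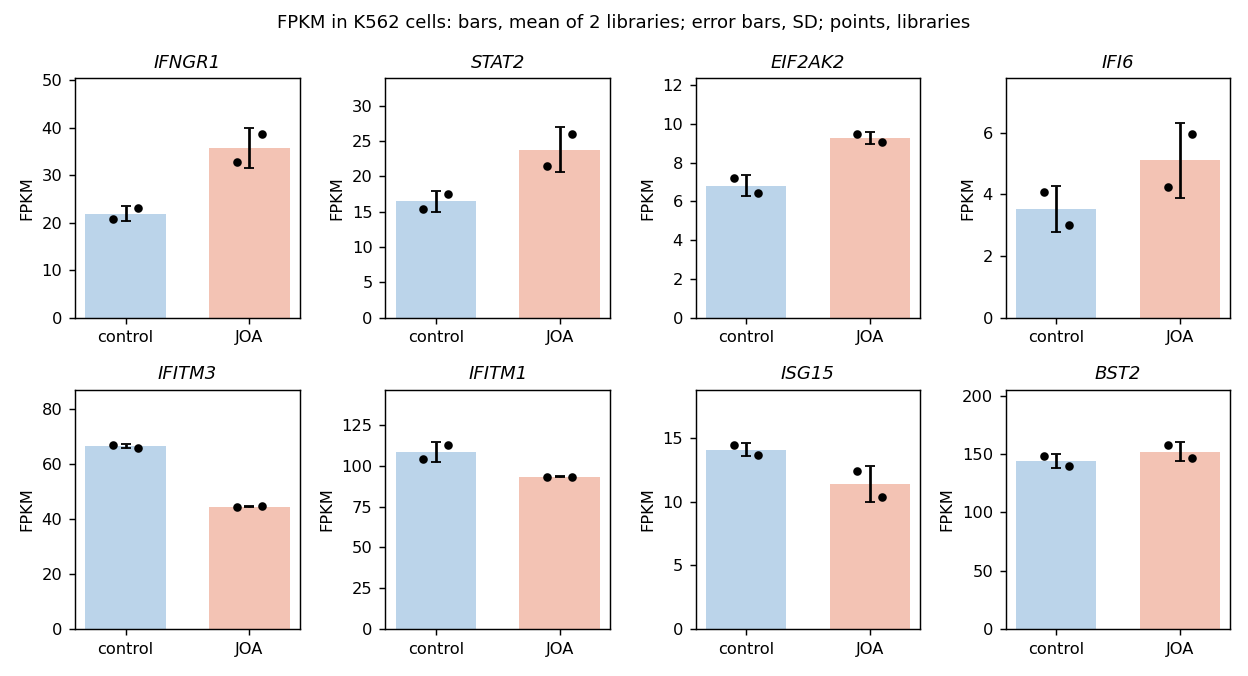
FPKM (vertical axes, from 0) of 8 interferon response genes in control and JOA libraries of K562 cells. Bars are means of 2 libraries, error bars are SD and points are libraries. IFNGR1, STAT2 and EIF2AK2 are higher in both JOA libraries, IFITM3, IFITM1 and ISG15 are lower in both, IFI6 has a JOA replicate close to the controls, and BST2 overlaps.

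The ubiquitin-like, ADP-ribosylation and nuclear group held genes in each position. ISG15, the ubiquitin-like modifier attached to proteins in interferon-treated cells, had 14.5 and 13.7 FPKM in the controls and 12.4 and 10.4 FPKM with JOA. Both JOA libraries were lower, JOA replicate 2 more so, and the log2 fold change was -0.30 ± 0.13 (SE; adjusted p = 0.313 in limma), or -0.18 without JOA replicate 2. DTX3L, a ubiquitin ligase, had 3.13 and 3.13 against 3.80 and 4.33 FPKM, a log2 fold change of 0.33 ± 0.13 (SE). Its binding partner PARP9, whose gene overlaps its start on the opposite strand of chromosome 3, had 1.17 and 1.13 against 1.09 and 1.44 FPKM. DTX3L and PARP9 share 217 exon bases, 3.70% of DTX3L and 2.43% of PARP9, where reads may not be separable. The JOA libraries of PARP9 fell on both sides of the controls, with a log2 fold change of 0.091 ± 0.20 (SE). SP110, a protein of nuclear bodies, had 1.04 and 0.899 against 1.46 and 1.58 FPKM, a log2 fold change of 0.46 ± 0.18 (SE), with both JOA libraries above the controls.

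TRIM22, a ubiquitin ligase with antiviral activity, was under the minimum and was not tested. It had 30 and 26 reads in the controls and 64 and 67 with JOA, from 0.188 to 0.214 FPKM in the controls and from 0.460 to 0.492 FPKM with JOA. The ratio of its reads per library size was 2.37, with a counting interval of 1.72 to 3.30 (95%), which covers counting error only, since without molecular identifiers a read is not an independent molecule. Without the minimum, its unadjusted p in limma was 0.0273 and its adjusted p was 0.425.

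Of the 5 IFI genes, IFI35, IFI6 and IFI27 were tested. IFI35, which binds the interferon-induced protein NMI, had 11.0 and 8.09 FPKM in the controls and 10.2 and 13.4 FPKM with JOA. The groups overlapped, with a log2 fold change of 0.30 ± 0.21 (SE) that was 0.51 without control replicate 1, 0.091 without control replicate 2, 0.49 without JOA replicate 1 and 0.11 without JOA replicate 2. IFI6, a small membrane protein with anti-apoptotic activity, had 4.07 and 3.02 against 4.25 and 5.98 FPKM, where JOA replicate 1 was only just above control replicate 1. Its log2 fold change was 0.47 ± 0.22 (SE), or 0.25 without JOA replicate 2 and 0.28 without control replicate 2. IFI27, a small hydrophobic protein that is strongly induced by type I interferon in many tissues, had 0.569 and 0.639 against 0.480 and 0.714 FPKM, with a log2 fold change of -0.017 ± 0.25 (SE) and no order between the groups. IFI44 had 0 reads in all 4 libraries and its neighbour IFI44L had 1 read, in JOA replicate 1.

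The IFIT genes encode proteins that bind RNA with foreign ends, and 4 of them lie side by side within chr10:89283694-89421001. IFIT3 alone was tested, with 1.32 and 1.25 FPKM in the controls and 1.39 and 1.61 FPKM with JOA. Its log2 fold change was 0.16 ± 0.17 (SE), both JOA libraries were above the controls, and the value was 0.086 without JOA replicate 2 and -0.026 after quantile normalization. The others were described by reads, always in the order of control replicates 1 and 2 and JOA replicates 1 and 2. IFIT1 had 21, 10, 24 and 40 reads, a ratio of 2.09 with a counting interval of 1.34 to 3.32. IFIT2 had 18, 16, 24 and 31 reads, a ratio of 1.64 with a counting interval of 1.05 to 2.59. Both intervals cover counting error only, not the spread between libraries. Without the minimum, the unadjusted p in limma was 0.140 for IFIT1 and 0.141 for IFIT2, and the adjusted p was 0.565 and 0.567. JOA replicate 2 was the highest library in both genes, and in IFIT1 the controls differed from each other more than JOA replicate 1 differed from control replicate 1. IFIT5 had 2, 2, 1 and 1 reads.

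MX1 and MX2, dynamin-like GTPases that trap viral nucleocapsids, are neighbours on chromosome 21 and were barely transcribed. MX1 had 3, 2, 4 and 7 reads and MX2 had 12, 6, 10 and 20 reads. The ratio was 2.23 for MX1, with a counting interval of 0.713 to 8.18, and 1.69 for MX2, with an interval of 0.910 to 3.21, so no difference was detectable at this depth. RSAD2, which encodes the antiviral enzyme viperin, had 0.702 and 0.414 FPKM in the controls and 0.600 and 0.603 FPKM with JOA. Both JOA libraries lay between the controls, and the log2 fold change was 0.072 ± 0.26 (SE).

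The DNA around the starts of the genes was examined for the elements named above. Windows from 250 bases before to 50 bases after a transcription start came from RefSeq (GRCh38.p14) and matched 30 of the 39 genes, with 42 windows since some genes have several starts. The ISRE was searched as GAAA, any 2 bases and again GAAA, and the GAS element as TTCNNNGAA, both on either strand. ISRE letters were found for 19 of the 30 genes (63.3%) and GAS letters for 9 (30.0%). Among all 27305 genes with windows in that source, 4.38% had ISRE letters and 9.38% had GAS letters, and among single windows 3.57% and 7.66%. In BST2, IFI27, IFITM1 and 1 window of MX1 a GAS match overlapped an ISRE match. Interferon response genes were chosen as known targets, so the share with ISRE letters describes that choice, and a match is not shown to be bound in these cells.

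Stretches around these letters are shown for genes with contrasting values in K562 cells, 5′ to 3′ along the gene, with every base of an ISRE match in capitals. IFITM3, IFITM1 and ISG15 were lower in both JOA libraries, EIF2AK2 and DTX3L were higher in both, BST2 was the most abundant and IFI44 had no read.
IFITM3 (chr11:320866-320932, minus strand): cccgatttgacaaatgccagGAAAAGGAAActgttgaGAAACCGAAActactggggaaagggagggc
IFITM1 (chr11:313980-314063, plus strand): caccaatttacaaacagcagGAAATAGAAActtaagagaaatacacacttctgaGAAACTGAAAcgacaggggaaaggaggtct
ISG15 (chr1:1013364-1013419, plus strand): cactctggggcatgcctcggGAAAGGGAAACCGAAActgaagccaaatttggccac
EIF2AK2 (chr2:37156957-37157006, minus strand): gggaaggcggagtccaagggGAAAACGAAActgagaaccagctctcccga
DTX3L (chr3:122564312-122564361, plus strand): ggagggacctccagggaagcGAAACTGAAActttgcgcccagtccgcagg
BST2 (chr19:17405725-17405780, minus strand): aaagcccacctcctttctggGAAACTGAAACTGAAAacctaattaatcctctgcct
IFI44 (chr1:78649751-78649800, plus strand): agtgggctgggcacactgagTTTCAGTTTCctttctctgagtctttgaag

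The 50 bases of DTX3L are also the promoter of PARP9 read from the other strand, so that the windows of both genes hold the same copy of the ISRE letters. IFI44 carries the letters on the opposite strand. The letters were thus present near the starts of genes at 148 FPKM and of a gene without a read, and of genes that were higher, lower or overlapping with JOA. The median log2 fold change was 0.091 for the 13 genes tested that had ISRE letters in a window, from -0.57 for IFITM3 to 0.47 for IFI6. It was 0.41 for the 10 tested that had none, from 0.094 for ADAR to 0.69 for IFNGR1. These 10 also hold IFNAR1 at 0.12, IFNGR2 at 0.16 and IRF9, which reached the minimum only through its JOA libraries. This is a description of the windows, with no test.

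**Figure D5:**
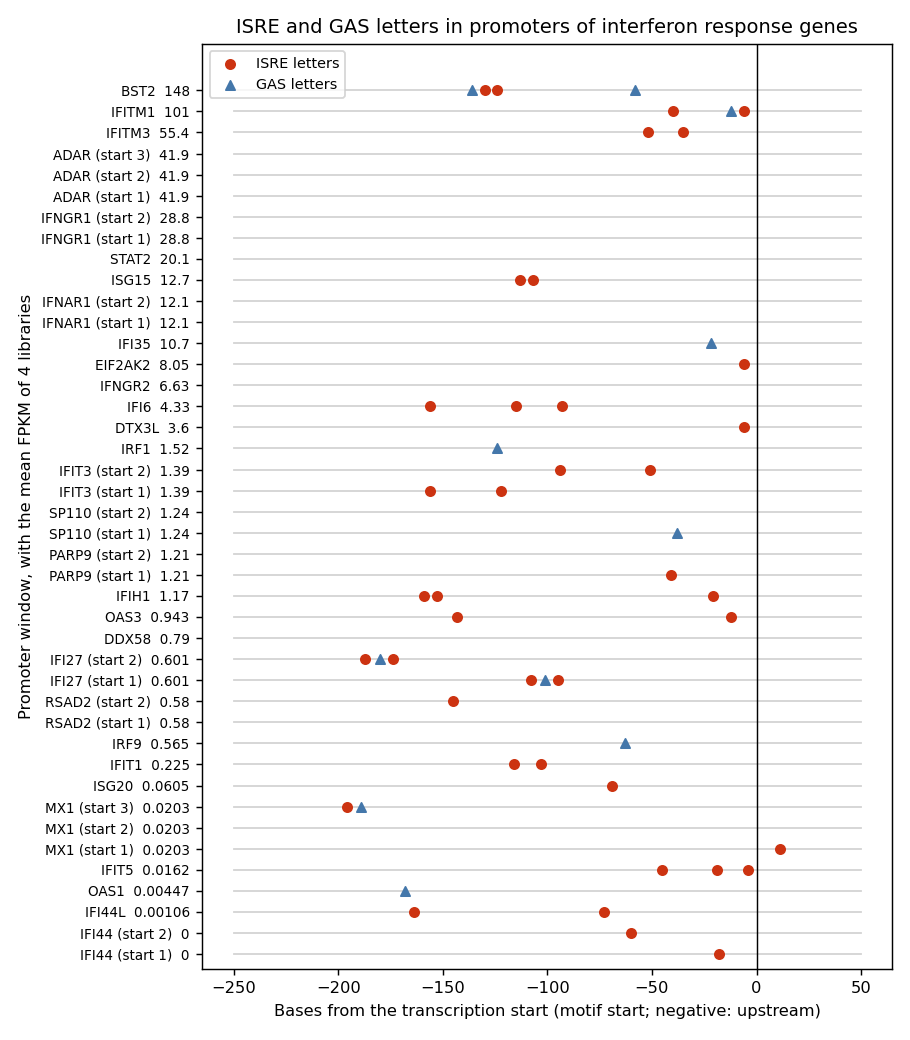
Positions of ISRE letters (red circles) and GAS letters (blue triangles) in 42 promoter windows of 30 interferon response genes, in bases from the transcription start (horizontal axis), with the windows in order of the gene's mean FPKM. ISRE letters occur from BST2 at 148 FPKM down to IFI44 at 0, and the windows of IFNGR1, STAT2, IFNAR1, IFNGR2 and ADAR hold neither.

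Other genes of the pathway were taken from a list of 85 measured genes that excludes the 39 and HLA genes. Of these, 56 were tested, 0 passed the adjusted threshold, 29 were above both controls in both JOA libraries (51.8%, against 36.8% of all genes) and 6 were below (10.7%, against 18.3%), with a median log2 fold change of 0.19. At an unadjusted p under 0.05 with the fold threshold, 7 were higher (12.5%, against 5.38%) and 0 lower (against 2.38%). The control means of GBP2 and EPSTI1, 0.364 and 0.478 FPKM, are under the minimum, so these genes were tested because of their JOA libraries and their values are no support for a direction. Of the kinases of the receptors, JAK1 had a log2 fold change of 0.36 ± 0.10 (SE), from 15.3 and 14.1 to 18.5 and 19.6 FPKM, while JAK2 was at 0.019 ± 0.14 and TYK2 at 0.045 ± 0.098.

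The genes past the unadjusted threshold included regulators of the receptors and of ISG15. USP18, which removes ISG15 from proteins and dampens signalling from IFNAR2, had 0.585 and 0.674 against 1.24 and 2.20 FPKM, a log2 fold change of 0.94 ± 0.28 (SE). Its value is uncertain, since the near-identical gene USP41 may share its reads. UBE2L6, the conjugating enzyme for ISG15, had 14.5 and 15.2 against 20.2 and 25.5 FPKM, a log2 fold change of 0.60 ± 0.14 (SE). ISG15 itself was lower in the same libraries. STING1, the adaptor of cytosolic DNA sensing, had 22.3 and 22.9 against 35.6 and 34.9 FPKM, a log2 fold change of 0.63 ± 0.093 (SE; unadjusted p = 0.00123, adjusted p = 0.226 in limma). The remaining ones were GBP2, whose control values of 0.424 and 0.305 FPKM are under the minimum, at 0.96, TRIM5 at 0.64, TDRD7 at 0.62 and the phosphatase PTPN6 at 0.61. Of 6 interferon genes measured, IFNB1 and IFNA1 had 0 reads in all 4 libraries and IFNK, IFNW1, IFNL1 and IFNL2 had at most 2 in any. Of the 12 HLA and peptide loading genes that were left out of the 39, 9 were tested and 8 stood above both controls (88.9%, against 36.8% of all genes). PSMB10 overlapped. Their median log2 fold change was 0.40, with 1.10 for HLA-E, 0.87 for HLA-C and 0.61 for PSMB8 as the largest values. The remaining values were 0.55 for PSMB9, 0.40 for TAP1, 0.19 for TAP2, 0.14 for PSMB10, 0.14 for B2M and 0.092 for TAPBP. HLA class I genes resemble each other, so reads may be split between them.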

How the data were processed

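Polyadenylated RNA of K562 cells, 2 control and 2 JOA libraries, was analysed. The authors deposited FPKM per gene, made from TruSeq Stranded mRNA libraries. The submitters' processing notes name Trimmomatic, HISAT2, Cufflinks, HTSeq and hg38, with no version or role. The study's methods name TPM, but the columns sum to between 279624 and 301985, which TPM values would not. Reads were recovered as whole multiples with GENCODE 29 exon lengths. Of the genes under 1000 reads, 96.2% to 96.3% came to whole numbers within 0.05. IFNGR1, ISG15, IFIH1 and ADAR did not, so they have no read counts. Symbols were matched for 35007 of 35141 identifiers, and DDX58 by its newer symbol RIGI. The 4 BaF3-T315I libraries were not used here.

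Genes whose mean over the 4 libraries reached 0.5 FPKM were fitted on log2(FPKM + 0.5) with limma 3.58.1 (R 4.3.3), with a variance trend, no covariate and 2 residual degrees of freedom, two-sided, and Benjamini-Hochberg adjustment over all 15635 genes. The fold threshold is the one in the study's methods. Fold changes on this scale understate the change of low genes. The fit was tested on simulated data. Alternatives were pseudocounts of 0.1 and 1, no minimum and a minimum of 1 FPKM, TPM, median-ratio and quantile scaling, no variance trend, a replicate block, voom on the recovered reads, and each library left out. Intervals of read ratios are 95% and exact. Tables were made in Python 3.11.15 with numpy 2.4.6, pandas 2.3.3 and scipy 1.17.1, and plots with matplotlib 3.10.9.

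The genes, the lists and the tests were chosen with earlier results of these data known. Values in each library are given for every gene of the 39 whose mean reached 5 FPKM and every tested one with an unadjusted p under 0.05, with others added after their values were seen. Weak genes are given by reads. Other pathway genes are named when past the unadjusted threshold, at most 4 per sub-list, with the kinases. Another gene that this rule names is not reported here. IFNA2, IFNE, IFNG, IFNL3 and ZBP1 were not analysed here.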

Additional observations from a re-analysis of the deposited data

How the results depend on the processing

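Over 14 alternatives, 387 values of single interferon response genes were recomputed. None passed the adjusted threshold (adjusted p 0.0902 to 0.995 in limma), 372 kept their direction and 15 turned it, in 9 genes. Changing the minimum, dropping the variance trend or adding the replicate block cannot alter a gene's log2 fold change. Values from those fits kept their direction by design and are no measure of stability. IFI27 was 0.047 after TPM scaling, 0.029 without control replicate 2 and 0.14 without JOA replicate 1 (-0.17 to 0.14 with 1 library left out), and IFITM2 was 0.013 after TPM scaling. After median-ratio scaling IFNAR1 was -0.016, IRF3 -0.025, BST2 -0.066, RSAD2 -0.0057, ADAR -0.050 and PARP9 -0.013. After quantile normalization IFIT3 was -0.026, RSAD2 -0.086 and PARP9 -0.094. RSAD2 was -0.13 without control replicate 2 (-0.13 to 0.27 with 1 library left out), and PARP9 -0.054 without JOA replicate 2 (-0.054 to 0.24). The cause was not tested.

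The median log2 fold change of the interferon response genes was 0.16 without the minimum, 0.45 after TPM scaling, 0.17 after median-ratio scaling, 0.19 after quantile normalization and 0.16 to 0.31 with 1 library left out. Of the genes, 11 lay above both controls after median-ratio scaling. Over all genes at the unadjusted threshold, 1750 were higher after TPM scaling, 530 after median-ratio scaling, 516 after quantile normalization and 519 to 1870 with 1 library left out, and 687 were lower after median-ratio scaling and 228 to 752 with 1 library left out. Of the interferon response genes, 6 of 31 passed it as higher after TPM scaling, beside 8.63% of all genes. The count was 5 of 28 with voom, beside 7.2%, and 0 of 28 after median-ratio scaling, beside 3.40%. With voom 5 genes passed the adjusted threshold, none of them among the 39. No source says whether a shared replicate number marks a shared culture or day, and the correlation of the deviations of same-numbered libraries was 0.188 over 15635 genes. With the replicate block, 0 genes were called, 1064 were higher and 428 lower at the unadjusted threshold, and the smallest adjusted p of an interferon response gene was 0.0902, against 0.226 without it. With 2 libraries per group, low genes such as IRF9 and the 11 weak ones are limited by their reads.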
